A study of Mus musculus with 9 samples.

Results

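The genes described here are 40 genes of the response to low oxygen and of glycolysis, followed in the uterus of mice given tamoxifen as newborns, with or without later primidone. They were chosen by name, as the rows of the deposited count table whose symbol stands on a list of 16 glycolytic enzymes, 5 transporters and regulators of glycolysis, 6 parts of the oxygen-sensing machinery and 13 hypoxia-inducible targets. The list was drawn up with earlier results of these data known, so its shares set beside all genes are not independent of the data. All 40 were among the 18094 genes of the table, and all 40 passed the filter on low counts that left 15186 genes tested. The RNA came from whole uteri of female mice at 13 weeks of age, in 9 libraries, 3 per group. Tamoxifen+primidone mice were fed tamoxifen, which acts on estrogen receptors as agonist or antagonist depending on the tissue, at 1 mg/kg on days 1 to 5 of life, and from week 10 were injected into the peritoneum with primidone, an anticonvulsant, at 2 mg/kg per day for 3 weeks. Tamoxifen mice were fed tamoxifen in the same way and injected with the vehicle of primidone. Control mice were fed the oil, lecithin and milk carrier without tamoxifen and injected with the vehicle. Neonatal tamoxifen is used to give mice adenomyosis, in which endometrial glands and stroma lie within the muscle wall. No group had primidone without tamoxifen, so the effect of primidone on an otherwise untreated uterus was not measured.

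The HIF transcription factors pair an alpha subunit, which is destroyed when oxygen is present, with the stable beta subunit ARNT. Prolyl hydroxylases of the EGLN family mark the alpha subunit in an oxygen-dependent reaction, and the VHL protein then directs it to degradation. In low oxygen the pair binds short motifs near the start of genes for glucose uptake, glycolysis, lactate export, vessel growth and collagen maturation. In the uterus several of these genes also respond to steroid hormones and to the hormonal cycle, and vascular growth under hypoxia is part of menstrual and decidual repair in species that have it.

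Of the 40 genes, 5 rose in tamoxifen uteri relative to control uteri and 0 fell. The 5 were Hk2, Aldoc and Slc2a1, which take up and process glucose, and P4ha1 and P4ha2, which hydroxylate collagen. This was 12.5% of the genes listed, beside 0.573% of all genes tested that rose and 0.961% that fell in the same test, edgeR's quasi-likelihood test with an adjusted p under 0.05. At an unadjusted p under 0.05, 21 of the 40 were higher and 1 was lower, beside 8.82% and 8.95% of all genes. The count of 5 depended on single libraries. It was 1 without tamoxifen 1, 3 without tamoxifen 2 and 2 without tamoxifen 3. Dropping control 1, 2 or 3 left 1, 2 and 1, and dropping tamoxifen+primidone 1 gave 8. DESeq2 called 16 of the 40 higher, beside 3.35% of all genes that it tested, and 0 lower, beside 3.77%. Limma-voom and limma on log2(FPKM + 1) each called 4 higher and 0 lower. Beyond the 5, DESeq2 called Pfkl, Aldoa, Eno1, Pkm, Slc16a3, Egln1, Egln3, Vegfa, Adm, Car9 and Higd1a. In whole uterus, a different number of cells of a type and a different amount of RNA per cell cannot be told apart.

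In tamoxifen+primidone uteri relative to tamoxifen uteri, 0 of the 40 passed edgeR's test in either direction, where 0% of all genes tested were called higher and 0.0132% lower. At an unadjusted p under 0.05, 21 were lower and 1 was higher, beside 7.51% and 6.3% of all genes. DESeq2 called 12 lower, beside 2.4% of all genes that it tested, and 0 higher, beside 1.38%. The 12 were Hk2, Pfkl, Aldoa, Aldoc, Tpi1, Eno1, Ldha, Slc2a1, Pdk1, Egln1, Ddit4 and Car9. Of the other tools, limma-voom and limma on log2(FPKM + 1) called 0 in either direction. Relative to control uteri, tamoxifen+primidone uteri had 2 of the 40 higher (P4ha1 and P4ha2), with a background of 2.14% of all genes. The 1 gene lower was Ddit4, with a background of 3.21%. The 2 higher became 4 without tamoxifen+primidone 1 and 1 without control 1 or control 3, and the 1 lower became 2 without tamoxifen 2 and 0 without control 3. The F test over all 3 groups at once was passed by 9 of the 40 (P4ha1, P4ha2, Hk2, Aldoc, Slc2a1, Pfkl, Eno1, Pdk1 and Ddit4), and this is 22.5% beside 3.84% of all genes.

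The fold changes had a common direction across most of the list. The median log2 fold change was 0.40 for tamoxifen against control, with 35 of 40 above 0, beside a median of 0.00018 over all genes tested. For tamoxifen+primidone against tamoxifen it was -0.40, with 3 of 40 above 0, beside 0.015 over all genes. Both of these use the tamoxifen libraries, so they are not independent of each other. For tamoxifen+primidone against control the median was -0.06, with 16 of 40 above 0, beside 0.012. All 3 libraries of the tamoxifen group lay above all 3 of the control group for 22 of the 40 genes, with a background of 12.7% of all genes, and below them for 1 gene, Pfkm, with a background of 13.4%. Tamoxifen+primidone libraries all lay below all tamoxifen libraries for 19 of the 40 (background 8.55%) and above them for Pfkm alone (background 8.08%). Against control they all lay above for 5 genes, Hk1, Vegfa, Adm, P4ha1 and P4ha2 (background 14.1%), and below for 4, Pdk1, Pfkfb3, Bnip3l and Ddit4 (background 15.1%).

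**Figure D1:**
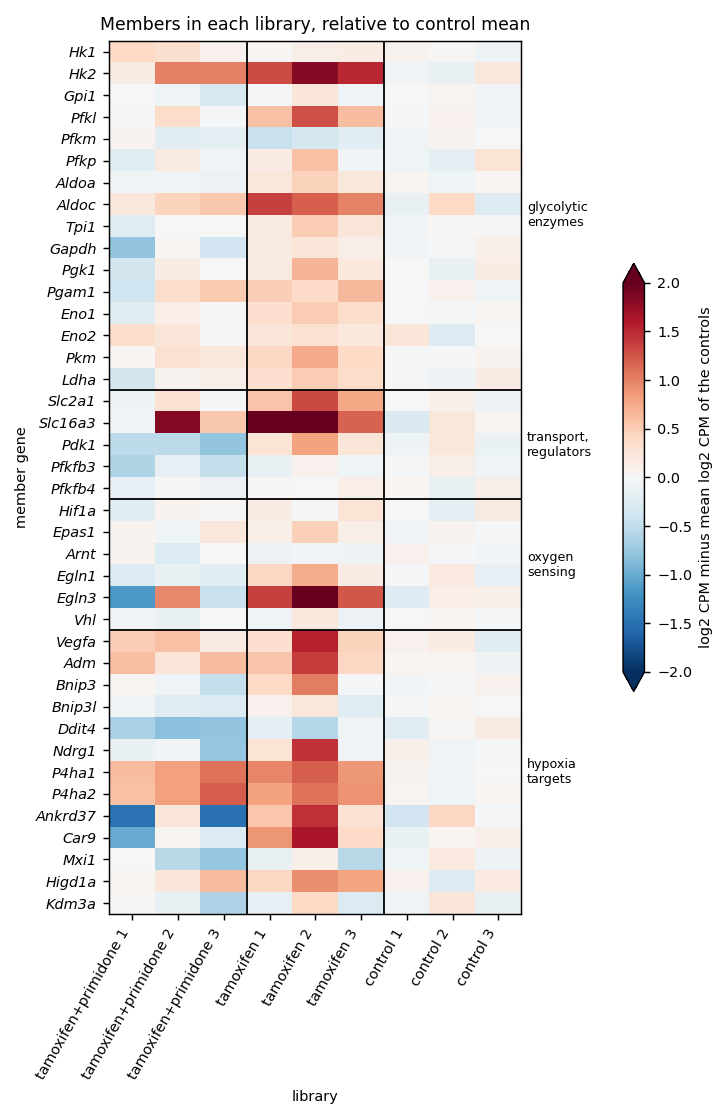
Each cell is the log2 CPM (the count scaled to a common library size) of a gene in a library minus the mean log2 CPM of the 3 control libraries, with genes grouped by role and libraries grouped as tamoxifen+primidone, tamoxifen and control. Red (higher than the controls) fills most of the tamoxifen columns, most deeply in tamoxifen 2, which held the highest value of the 9 libraries for 28 of the 40 genes.

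Tamoxifen 2 stood apart in these genes. It held the highest of the 9 values for 28 of the 40, beside 10.6% of all genes, and exceeded 1.5 times the mean of tamoxifen 1 and 3 for 11 of the 40, beside 7.11% of all genes. The 5 genes for which it was more than 2 times that mean were Slc16a3 (3.67 times), Egln3 (3.57 times), Ndrg1 (2.51 times), Vegfa (2.23 times) and Ankrd37 (2.04 times). Without tamoxifen 2 the median log2 fold change of the list was 0.23 for tamoxifen against control, with 31 of 40 above 0, and -0.29 for tamoxifen+primidone against tamoxifen, with 7 above 0. The genes whose libraries did not overlap numbered 22 then too in the first comparison (18.8% of all genes) and 20 in the second (13.7% of all genes). At the other end, tamoxifen+primidone 1 held the lowest of the 9 values for 14 of the 40, beside 13.2% of all genes. Library totals ran from 36393120 to 39958443 counts, and libraries of the same group were further apart than counting error allows (chi-square per degree of freedom 20.2 to 81.4). Depth was near equal across libraries, and no label gives a batch.

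**Figure D2:**
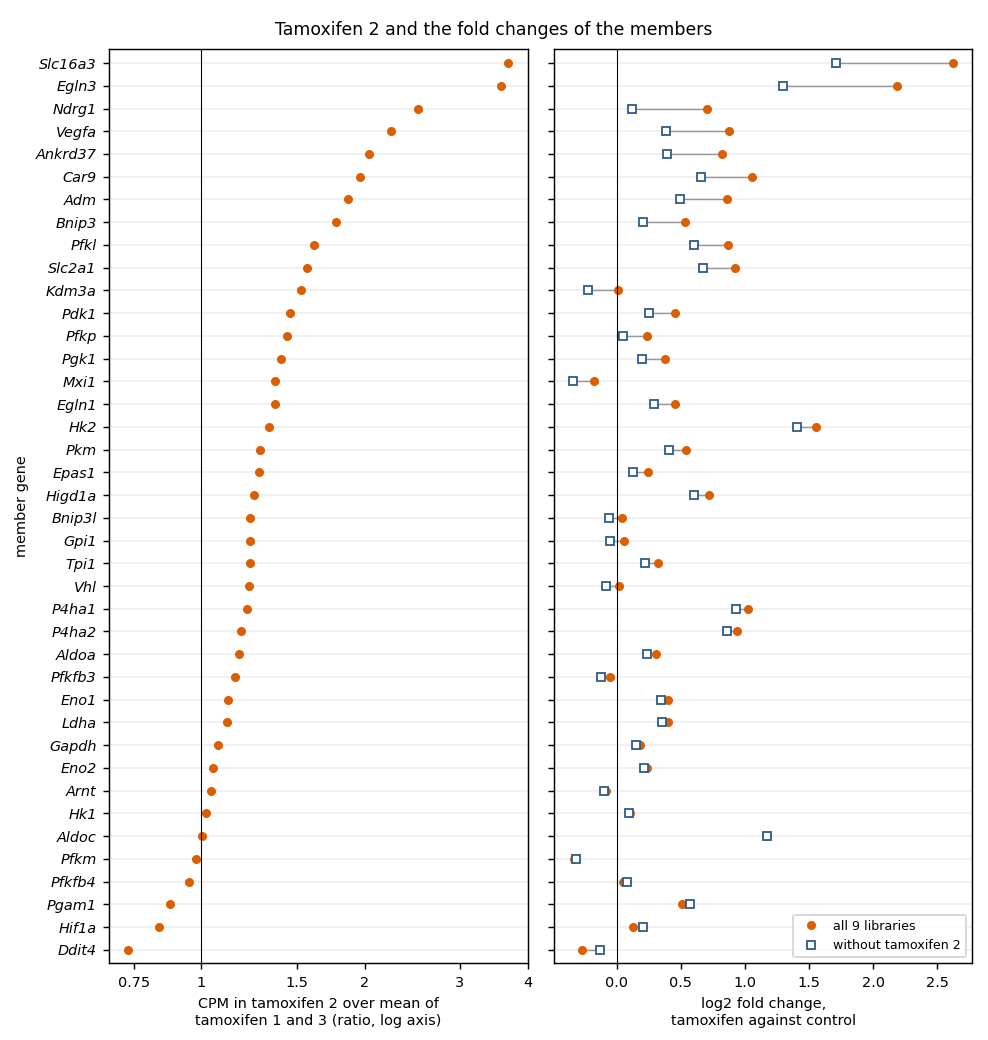
The left panel gives the CPM of each gene in tamoxifen 2 over the mean of tamoxifen 1 and 3 on a log axis, and the right panel the log2 fold change of tamoxifen against control with all 9 libraries (filled circles) and without tamoxifen 2 (open squares). Leaving out that library moves Slc16a3, Egln3, Ndrg1 and Vegfa far to the left, and hardly moves Hk2, Aldoc, P4ha1 and P4ha2.

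The stretches of 250 bases before the transcription start of the 5 genes that rose in tamoxifen uteri are printed here because HIF binds a core motif spelled ACGTG or GCGTG. They are RefSeq windows of the GRCm38.p6 build (the counts were made on GRCm39), written 5′ to 3′ on the strand of the gene, and capitals mark ACGTG or GCGTG on either strand (read as CACGT or CACGC on the reverse). P4ha1 lies at chr10:59323046-59323295, plus strand. P4ha2 lies at chr11:54100674-54100923, plus strand. Hk2 lies at chr6:82774455-82774704, minus strand. Aldoc, the first of its 2 windows, lies at chr11:78322823-78323072, plus strand. Slc2a1 lies at chr4:119108495-119108744, plus strand.
P4ha1: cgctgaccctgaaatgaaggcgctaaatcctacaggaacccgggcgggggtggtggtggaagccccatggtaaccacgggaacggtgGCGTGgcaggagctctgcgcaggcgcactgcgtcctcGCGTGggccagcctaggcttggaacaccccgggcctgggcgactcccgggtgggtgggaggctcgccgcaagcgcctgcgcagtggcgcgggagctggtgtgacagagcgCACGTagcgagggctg
P4ha2: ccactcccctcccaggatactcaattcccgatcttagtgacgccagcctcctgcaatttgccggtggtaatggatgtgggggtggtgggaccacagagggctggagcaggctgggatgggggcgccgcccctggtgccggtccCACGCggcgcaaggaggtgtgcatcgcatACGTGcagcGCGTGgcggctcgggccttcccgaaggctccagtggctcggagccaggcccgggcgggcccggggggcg
Hk2: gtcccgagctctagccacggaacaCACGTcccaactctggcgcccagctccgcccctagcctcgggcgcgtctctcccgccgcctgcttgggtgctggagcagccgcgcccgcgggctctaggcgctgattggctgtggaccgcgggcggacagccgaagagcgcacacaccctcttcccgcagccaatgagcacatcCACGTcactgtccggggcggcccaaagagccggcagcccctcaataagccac
Aldoc: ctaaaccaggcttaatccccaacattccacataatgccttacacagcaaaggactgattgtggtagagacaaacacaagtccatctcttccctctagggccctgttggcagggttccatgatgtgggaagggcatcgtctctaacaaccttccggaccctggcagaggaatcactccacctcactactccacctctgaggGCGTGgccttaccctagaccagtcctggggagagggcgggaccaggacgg
Slc2a1: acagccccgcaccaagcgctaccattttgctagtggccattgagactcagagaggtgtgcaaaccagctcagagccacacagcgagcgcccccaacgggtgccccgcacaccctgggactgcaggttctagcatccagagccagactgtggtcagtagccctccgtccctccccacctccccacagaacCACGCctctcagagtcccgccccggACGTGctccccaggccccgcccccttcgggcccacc
In these stretches Hk2 has 2 ACGTG motifs, P4ha1 has 1 ACGTG and 2 GCGTG, P4ha2 has 1 ACGTG and 2 GCGTG, Slc2a1 has 1 of each and Aldoc has 1 GCGTG. Over the full 300 bases of the RefSeq windows, which run on 50 bases past the start, P4ha2 has 2 of each and Aldoc has 1 ACGTG and 2 GCGTG. RefSeq windows were found for 37 of the 40 genes, and not for Ndrg1, Epas1 and Bnip3l. ACGTG occurred on either strand in at least 1 window of 25 of the 37 (67.6%, beside 21.8% of all genes with a window), GCGTG in 24 (64.9%, beside 35.2%) and one or the other in 33 (89.2%, beside 46.7%). A gene with more windows has more places for a motif. Of the 55 windows, 52.7% held ACGTG (19.6% of all windows), 52.7% GCGTG (32.4%) and 76.4% either (43.8%). The genes were listed for the response to low oxygen and glycolysis, so these shares are no independent test of HIF. Both motifs hold CG, and the windows of the listed genes averaged 61.9% G+C, beside 53.8% over all windows, and binding was not measured.

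Glucose enters the cell through the transporter GLUT1, encoded by Slc2a1. Slc2a1 had 33.3, 44.4 and 35.1 CPM in tamoxifen+primidone uteri, 53.2, 89.5 and 61.1 CPM in tamoxifen uteri and 35.7, 38.5 and 33.4 CPM in control uteri. Every tamoxifen library lay above the other 6, and the tamoxifen+primidone and control libraries overlapped. Slc2a1 rose in tamoxifen uteri, with a log2 fold change of 0.92 ± 0.19 (edgeR adjusted p = 0.0456). The call was lost on leaving out any of the 6 libraries compared: the adjusted p was 0.0502, 0.0647 and 0.0862 when tamoxifen 1, 2 and 3 were dropped in turn, and 0.153, 0.108 and 0.157 when control 1, 2 and 3 were. It was 0.0573 without tamoxifen+primidone 3 and 0.0543 with limma-voom. Its log2 fold change was -0.85 ± 0.19 (edgeR adjusted p = 0.12) for tamoxifen+primidone against tamoxifen and 0.07 ± 0.18 (edgeR adjusted p = 0.868) against control.

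Hexokinase traps glucose as its phosphate. Hk2, the inducible hexokinase of muscle and fat, had 31.6, 57.3 and 57.5 CPM in tamoxifen+primidone uteri, 70.5, 101 and 81.3 CPM in tamoxifen uteri and 27.2, 25.6 and 33.2 CPM in control uteri. The tamoxifen libraries all lay above the others, and tamoxifen+primidone 1 lay within the range of the controls. Hk2 had the largest fold change of the 5 genes that rose, 1.56 ± 0.23 (edgeR adjusted p = 0.0236) on the log2 scale, a 2.94-fold difference. The adjusted p was 0.0502 without tamoxifen 1 and 0.0681 without tamoxifen 3, and 0.0914, 0.0714 and 0.0803 when control 1, 2 and 3 were dropped in turn. In tamoxifen+primidone uteri Hk2 stood between the other groups, at -0.79 ± 0.23 (edgeR adjusted p = 0.198) against tamoxifen and 0.77 ± 0.23 (edgeR adjusted p = 0.0877) against control, neither of which passed. Hk1, the hexokinase of most tissues, had 133, 126 and 107 CPM in tamoxifen+primidone uteri, 103, 109.8 and 112 CPM in tamoxifen uteri and 106, 102 and 94.2 CPM in control uteri. Its log2 fold change was 0.27 ± 0.09 (edgeR adjusted p = 0.119) for tamoxifen+primidone against control, with no overlap between the libraries, and 0.10 ± 0.09 for tamoxifen against control.

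The make-up of the hexokinase pool differed with it. On the deposited FPKM scale, which divides by gene length, Hk2 made up 17.6, 29.0 and 32.6 % in tamoxifen+primidone uteri, 38.0, 45.3 and 39.5 % in tamoxifen uteri and 18.7, 18.3 and 24.0 % in control uteri of the Hk1 and Hk2 total. The share averaged 26.4% ± 7.84 in tamoxifen+primidone uteri, 40.9% ± 3.82 in tamoxifen uteri and 20.3% ± 3.2 in control uteri (SD, n = 3 each). The tamoxifen shares lay above all the others. The exact permutation test, two-sided, gave p = 0.1 for tamoxifen against control and for tamoxifen+primidone against tamoxifen, the smallest value that 3 against 3 can give, and p = 0.4 for tamoxifen+primidone against control.

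Phosphofructokinase, the committed step of glycolysis, is built from liver-type (Pfkl), muscle-type (Pfkm) and platelet-type (Pfkp) subunits, and the 3 genes did not share one direction. Pfkl had 70.3, 92.2 and 70.3 CPM in tamoxifen+primidone uteri, 108, 175 and 109 CPM in tamoxifen uteri and 69.6, 76.0 and 68.9 CPM in control uteri. All tamoxifen libraries were above the other 6, tamoxifen 2 most of all, but with edgeR as reported Pfkl did not pass in any pair of groups. DESeq2 called it higher in tamoxifen than in control uteri and lower in tamoxifen+primidone than in tamoxifen uteri, and edgeR called it in the first of these without tamoxifen+primidone 2. Its log2 fold change was 0.87 ± 0.19 (edgeR adjusted p = 0.0543) for tamoxifen against control, -0.75 ± 0.19 (edgeR adjusted p = 0.156) for tamoxifen+primidone against tamoxifen and 0.12 ± 0.19 (edgeR adjusted p = 0.754) for tamoxifen+primidone against control. It did pass the F test over the 3 groups (edgeR adjusted p = 0.0471). Pfkm was the only glycolytic enzyme on the list lower in tamoxifen than in control uteri. It had 37.0, 30.5 and 31.3 CPM in tamoxifen+primidone uteri, 25.9, 27.6 and 30.4 CPM in tamoxifen uteri and 33.6, 36.9 and 35.3 CPM in control uteri, with log2 fold changes of -0.33 ± 0.10 (edgeR adjusted p = 0.132) for tamoxifen against control, 0.24 ± 0.10 (edgeR adjusted p = 0.351) for tamoxifen+primidone against tamoxifen and -0.10 ± 0.10 for tamoxifen+primidone against control. Pfkp was 0.24 ± 0.18, -0.29 ± 0.18 and -0.05 ± 0.18 in those comparisons.

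As a share of phosphofructokinase FPKM, Pfkl was 53.9% ± 3.61 in tamoxifen+primidone uteri, 66.1% ± 3.97 in tamoxifen uteri and 50.7% ± 2.50 in control uteri (SD, n = 3 each). Pfkm made up 28.5% ± 4.73 in tamoxifen+primidone uteri, 18.2% ± 4.11 in tamoxifen uteri and 30.8% ± 0.67 in control uteri (SD, n = 3 each), and its tamoxifen shares lay below the other 6 libraries. For Pfkl and Pfkm alike the exact permutation p was 0.1, the smallest possible, for tamoxifen against control and for tamoxifen+primidone against tamoxifen. The 8 smooth muscle markers summed to 5667 to 7036 CPM in tamoxifen+primidone uteri, 6025 to 7312 CPM in tamoxifen uteri and 7354 to 11802 CPM in control uteri. For tamoxifen against control edgeR called 0 of the 8, with 5 at an unadjusted p under 0.05 and 5 called lower by DESeq2. The part of muscle content in these shares was not tested.

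**Figure D3:**
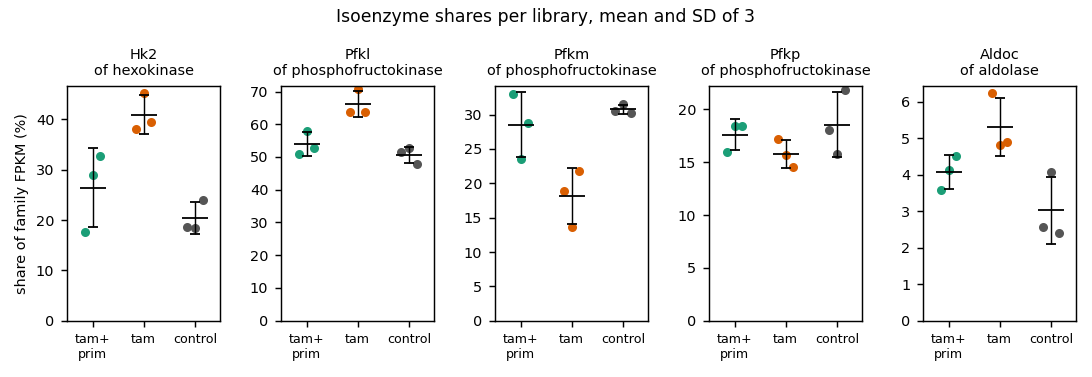
Points are the share of each isoenzyme in the summed FPKM of its family (%, from 0) in libraries 1, 2 and 3 of each group, with the mean and SD of 3. The tamoxifen points lie above the other 6 for Hk2, Pfkl and Aldoc and below them for Pfkm, while the groups overlap for Pfkp.

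Aldolase splits the hexose into triose phosphates. Aldoc, the isoenzyme best known from brain, had 27.7, 32.2 and 34.3 CPM in tamoxifen+primidone uteri, 61.1, 54.4 and 47.3 CPM in tamoxifen uteri and 21.5, 31.2 and 19.8 CPM in control uteri. The tamoxifen libraries lay above all others, and the tamoxifen+primidone libraries overlapped with the controls only through control 2. Aldoc rose in tamoxifen uteri, with a log2 fold change of 1.17 ± 0.17 (edgeR adjusted p = 0.0212), and the adjusted p was 0.0571 without tamoxifen 1, 0.0889 without control 1 and 0.0787 without control 3. Tamoxifen 2 was not its highest library, and without it the fold change was 1.17. Aldoc was -0.79 ± 0.17 (edgeR adjusted p = 0.119) for tamoxifen+primidone against tamoxifen and 0.38 ± 0.17 (edgeR adjusted p = 0.226) for tamoxifen+primidone against control. It remained a minor part of aldolase, at 4.08% ± 0.473 in tamoxifen+primidone uteri, 5.32% ± 0.794 in tamoxifen uteri and 3.02% ± 0.913 in control uteri (SD, n = 3 each) of the Aldoa and Aldoc FPKM.

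The abundant housekeeping enzymes of the pathway were highest in tamoxifen uteri by smaller amounts, and none passed edgeR's test as reported in a pair of groups. DESeq2 called Aldoa, Eno1 and Pkm higher in tamoxifen than in control uteri, and Aldoa, Tpi1, Eno1 and Ldha lower in tamoxifen+primidone than in tamoxifen uteri. Pkm also passed in the first comparison with edgeR with only the 2 groups compared, with no low-count filter and without tamoxifen+primidone 1. Eno1 also passed there with only the 2 groups compared and without tamoxifen+primidone 1 or 2. Aldoa, the main aldolase, averaged 596 ± 10.0 CPM in tamoxifen+primidone uteri, 782 ± 73.4 CPM in tamoxifen uteri and 631 ± 32.8 CPM in control uteri (SD, n = 3 each), with log2 fold changes of 0.31 ± 0.09 (edgeR adjusted p = 0.118) for tamoxifen against control and -0.39 ± 0.09 (edgeR adjusted p = 0.133) for tamoxifen+primidone against tamoxifen. Tpi1, which interconverts the triose phosphates, was 0.32 ± 0.11 (edgeR adjusted p = 0.159) and -0.40 ± 0.11 (edgeR adjusted p = 0.175) in those comparisons. For both genes the tamoxifen libraries lay above all the other 6. Pgk1, which makes ATP from the next intermediate, was 0.38 ± 0.17 (edgeR adjusted p = 0.273) and -0.44 ± 0.17 (edgeR adjusted p = 0.281). Pkm, whose product makes pyruvate, had 470.2, 569.7 and 535 CPM in tamoxifen+primidone uteri, 613, 781 and 606 CPM in tamoxifen uteri and 448, 451 and 479.9 CPM in control uteri. Its 3 tamoxifen libraries were the highest, and Pkm came close to the threshold in tamoxifen uteri, at 0.54 ± 0.12 (edgeR adjusted p = 0.0516). Tamoxifen+primidone against tamoxifen gave -0.34 ± 0.12 (edgeR adjusted p = 0.235).

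Ldha, which reduces pyruvate to lactate, had 494, 673 and 689.6 CPM in tamoxifen+primidone uteri, 805, 910.2 and 830.0 CPM in tamoxifen uteri and 621, 596 and 712 CPM in control uteri. The tamoxifen libraries again lay above the rest, with log2 fold changes of 0.40 ± 0.13 (edgeR adjusted p = 0.155) against control and, for tamoxifen+primidone against tamoxifen, -0.46 ± 0.13 (edgeR adjusted p = 0.192). Eno1, which makes phosphoenolpyruvate, had 183, 232 and 208 CPM in tamoxifen+primidone uteri, 267, 302 and 270.4 CPM in tamoxifen uteri and 213, 206 and 217 CPM in control uteri. All tamoxifen libraries were above the other 6. Eno1 was 0.40 ± 0.10 (edgeR adjusted p = 0.073) for tamoxifen against control, -0.43 ± 0.10 (edgeR adjusted p = 0.124) for tamoxifen+primidone against tamoxifen and -0.03 ± 0.10 for tamoxifen+primidone against control, and passed the F test (edgeR adjusted p = 0.0456). A close copy, Eno1b, stood at 35.6 to 71.2 CPM in the 9 libraries, so reads may be divided between the copies and the Eno1 values are uncertain. Pgam1, a mutase of the lower pathway, was 0.51 ± 0.20 (edgeR adjusted p = 0.221) for tamoxifen against control. It passed there with only the 2 groups compared and without tamoxifen+primidone 1. Its libraries did not overlap in that comparison, but tamoxifen+primidone 3 lay among the tamoxifen libraries.

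Gapdh, often used as a reference gene, read far lower than its neighbours in the pathway. Its FPKM averaged 8.87 ± 2.54 in tamoxifen+primidone uteri, 12.1 ± 0.643 in tamoxifen uteri and 10.6 ± 0.582 in control uteri, while Tpi1 averaged 299 ± 25.3, 376 ± 50.8 and 300.1 ± 10.8 in the same order (SD, n = 3 each). Gapdh has many near-identical processed copies in the mouse genome, and its counts are uncertain for that reason. It was -0.52 ± 0.18 (edgeR adjusted p = 0.244) for tamoxifen+primidone against tamoxifen, and 0.18 ± 0.18 for tamoxifen against control. Gpi1 and Eno2, the isomerase of the upper pathway and the neuronal enolase, had log2 fold changes of 0.05 ± 0.11 and 0.24 ± 0.14 for tamoxifen against control and -0.18 ± 0.11 and -0.04 ± 0.14 for tamoxifen+primidone against tamoxifen. Of the 16 enzymes, then, 2 rose in tamoxifen uteri (beside 0.573% of all genes tested), 15 had a positive fold change and the median was 0.35. For tamoxifen+primidone against tamoxifen 0 passed with edgeR and the median was -0.40. At an unadjusted p under 0.05, 10 were lower, beside 7.51% of all genes, and 1, Pfkm, was higher, beside 6.3%. DESeq2 called 7 lower, beside 2.4% of all genes that it tested.

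**Figure D4:**
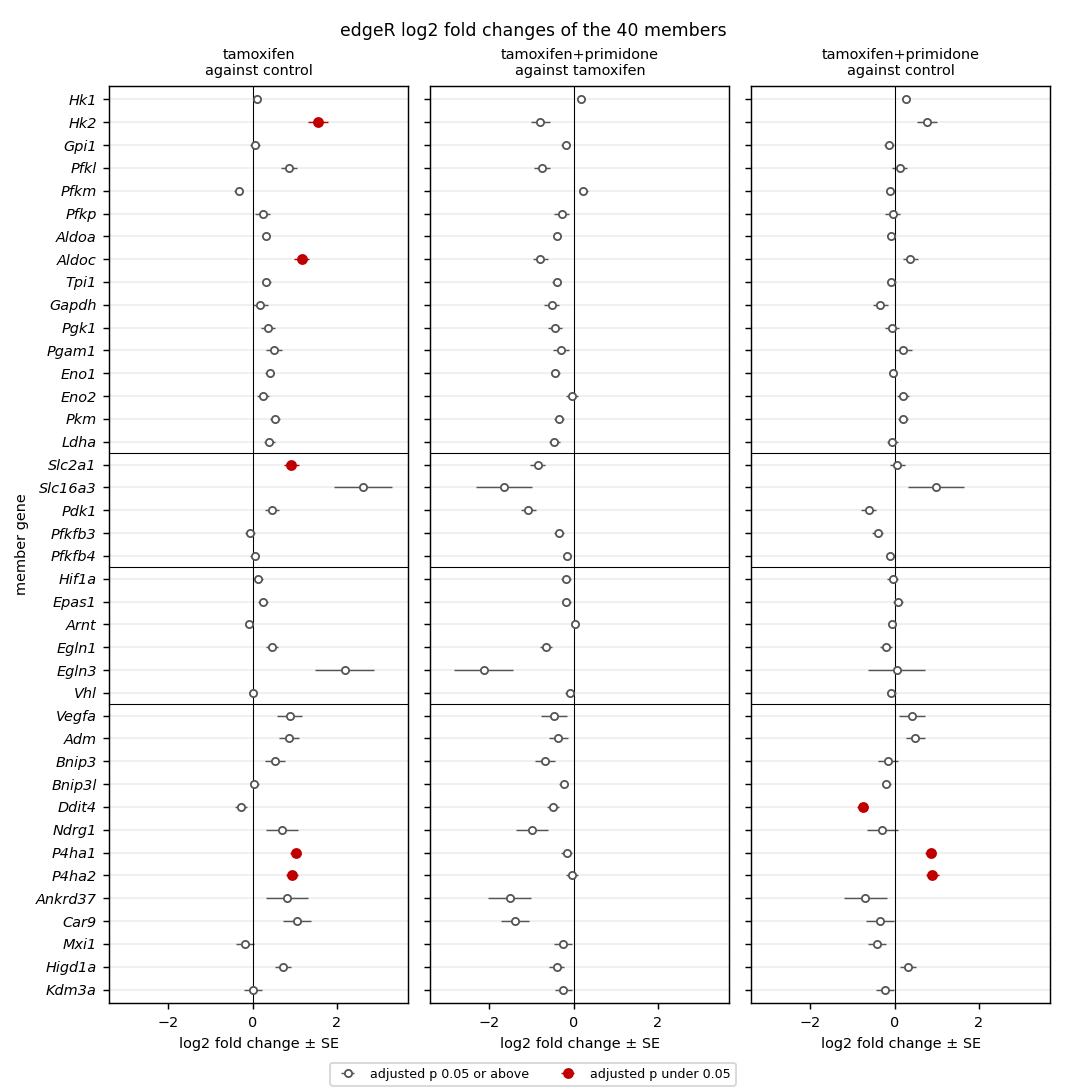
Points are edgeR log2 fold changes with their standard errors for the 40 genes in each comparison, ordered by role. Red points have an adjusted p under 0.05. Points lie right of 0 for 35 genes in the left panel and left of 0 for 37 in the middle panel, where none is red, and both P4ha genes are red in the left and right panels.

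Slc16a3 encodes MCT4, which exports lactate. It had 2.95, 11.0 and 4.48 CPM in tamoxifen+primidone uteri, 13.4, 37.4 and 6.98 CPM in tamoxifen uteri and 2.53, 3.61 and 3.21 CPM in control uteri. All tamoxifen libraries were above all controls, tamoxifen 2 stood far above the other 8, and tamoxifen+primidone 2 lay between tamoxifen 3 and tamoxifen 1. The log2 fold change was the highest of the list, 2.62 ± 0.69 (edgeR adjusted p = 0.101) for tamoxifen against control, and did not pass. It was 1.71 without tamoxifen 2, and DESeq2 called it. Tamoxifen+primidone set against tamoxifen gave -1.65 ± 0.66 (edgeR adjusted p = 0.323), or -0.73 without tamoxifen 2, and against control 0.97 ± 0.67 (edgeR adjusted p = 0.421).

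Pdk1 encodes a kinase that switches off pyruvate dehydrogenase and so keeps pyruvate out of the citric acid cycle. Pdk1 had 13.0, 12.9 and 10.8 CPM in tamoxifen+primidone uteri, 22.5, 32.5 and 22.1 CPM in tamoxifen uteri and 17.5, 21.7 and 17.1 CPM in control uteri. No 2 groups overlapped, with tamoxifen+primidone the lowest and tamoxifen the highest. Of the 40 genes it had the smallest adjusted p for tamoxifen+primidone against tamoxifen, -1.07 ± 0.17 (edgeR adjusted p = 0.0679), still above the threshold. DESeq2 called Pdk1 lower there, as did edgeR with no low-count filter and with the replicate block, but 0 of the 9 fits with a library left out did. Pdk1 was 0.45 ± 0.17 (edgeR adjusted p = 0.197) for tamoxifen against control and -0.62 ± 0.17 (edgeR adjusted p = 0.064) for tamoxifen+primidone against control, and it passed the F test (edgeR adjusted p = 0.0248). For tamoxifen+primidone against control it was called lower by DESeq2, and by edgeR with the replicate block and without tamoxifen 2.

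Pfkfb3 and Pfkfb4 make the sugar phosphate that activates phosphofructokinase. Pfkfb3 had 34.1, 45.9 and 37.0 CPM in tamoxifen+primidone uteri, 46.5, 54.6 and 48.3 CPM in tamoxifen uteri and 50.5, 56.1 and 48.3 CPM in control uteri. The tamoxifen and control libraries overlapped and the tamoxifen+primidone libraries lay below both, with log2 fold changes of -0.35 ± 0.12 (edgeR adjusted p = 0.238) against tamoxifen and -0.40 ± 0.12 (edgeR adjusted p = 0.0778) against control. It was -0.05 ± 0.12 for tamoxifen against control. Pfkfb4 was 0.05 ± 0.10 for tamoxifen against control and -0.15 ± 0.10 for tamoxifen+primidone against tamoxifen.

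The HIF subunits and VHL themselves differed little at the level of RNA, which does not measure HIF protein. Hif1a, an alpha subunit, averaged 178 ± 19.1 CPM in tamoxifen+primidone uteri, 201 ± 21.8 CPM in tamoxifen uteri and 184 ± 23.0 CPM in control uteri. Epas1, the alpha subunit known from endothelium, averaged 206 ± 21.6, 232 ± 33.6 and 195 ± 8.94 CPM in those groups (SD, n = 3 each). The Epas1 libraries of tamoxifen uteri lay just above those of control uteri, with no overlap, and neither gene passed. Arnt, the beta subunit, and Vhl had log2 fold changes of -0.09 ± 0.10 and 0.02 ± 0.10 for tamoxifen against control. Over these 4 genes and 3 comparisons the values ran from -0.17 to 0.25, with a 95% interval for Hif1a in tamoxifen against control of -0.15 to 0.39.

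The prolyl hydroxylases Egln1 and Egln3, which are themselves HIF targets, also had their highest means in tamoxifen uteri. Neither passed edgeR's test, while DESeq2 called both higher in tamoxifen than in control uteri and Egln1 lower in tamoxifen+primidone than in tamoxifen uteri. Egln1 had 102, 113 and 107 CPM in tamoxifen+primidone uteri, 165, 207 and 139 CPM in tamoxifen uteri and 120.1, 142 and 111 CPM in control uteri. Tamoxifen+primidone libraries lay below all tamoxifen libraries, while tamoxifen 3 lay below control 2. The log2 fold change was 0.45 ± 0.14 (edgeR adjusted p = 0.135) for tamoxifen against control and -0.66 ± 0.14 (edgeR adjusted p = 0.116) for tamoxifen+primidone against tamoxifen. Egln3 had 13.6, 58.5 and 22.2 CPM in tamoxifen+primidone uteri, 77.9, 265 and 70.9 CPM in tamoxifen uteri and 25.2, 33.1 and 32.6 CPM in control uteri. Every tamoxifen library was above the other 6, and tamoxifen 2 was 3.57 times the mean of tamoxifen 1 and 3. Egln3 did not pass, at 2.19 ± 0.70 (edgeR adjusted p = 0.174) for tamoxifen against control, 1.30 without tamoxifen 2, and -2.13 ± 0.70 (edgeR adjusted p = 0.262) for tamoxifen+primidone against tamoxifen, or -1.24 without tamoxifen 2. Against control the tamoxifen+primidone libraries lay on both sides, at 0.05 ± 0.68.

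P4ha1 and P4ha2 encode the catalytic subunits of collagen prolyl hydroxylase, which stabilises the collagen helix in the endoplasmic reticulum. P4ha1 had 55.9, 64.1 and 77.6 CPM in tamoxifen+primidone uteri, 72.0, 83.9 and 66.1 CPM in tamoxifen uteri and 38.2, 34.8 and 36.3 CPM in control uteri. Both groups that had received tamoxifen lay above all controls and overlapped with each other. P4ha1 rose in tamoxifen uteri by 1.02 ± 0.13 (edgeR adjusted p = 0.00902) on the log2 scale and in tamoxifen+primidone uteri, against control, by 0.85 ± 0.13 (edgeR adjusted p = 0.00915). In the 19 other fits it kept both calls, with the highest adjusted p at 0.0484 in the first comparison and 0.0425 in the second. The difference between tamoxifen+primidone and tamoxifen uteri was -0.17 ± 0.13 (edgeR adjusted p = 0.611).

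P4ha2 had 26.6, 31.0 and 40.9 CPM in tamoxifen+primidone uteri, 30.7, 37.6 and 33.0 CPM in tamoxifen uteri and 18.2, 16.7 and 18.0 CPM in control uteri. Again both tamoxifen-treated groups lay above all controls, and tamoxifen+primidone 3 was the highest library. P4ha2 rose in tamoxifen uteri, at 0.94 ± 0.15 (edgeR adjusted p = 0.0236), and in tamoxifen+primidone uteri against control, at 0.90 ± 0.15 (edgeR adjusted p = 0.0129). The first call was lost without any one of the 6 libraries compared: the adjusted p was 0.0516, 0.0572 and 0.0681 without tamoxifen 1, 2 and 3, and 0.0906, 0.0671 and 0.096 without control 1, 2 and 3. The second was 0.0542 without control 1 and 0.052 without control 3. For tamoxifen+primidone against tamoxifen P4ha2 was -0.04 ± 0.15 (edgeR adjusted p = 0.938), with a 95% interval of -0.37 to 0.29. The subunits kept near the same proportions, P4ha1 making up 53.5% ± 1.38 in tamoxifen+primidone uteri, 55.5% ± 1.99 in tamoxifen uteri and 54.1% ± 0.567 in control uteri (SD, n = 3 each) of their summed FPKM.

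**Figure D5:**
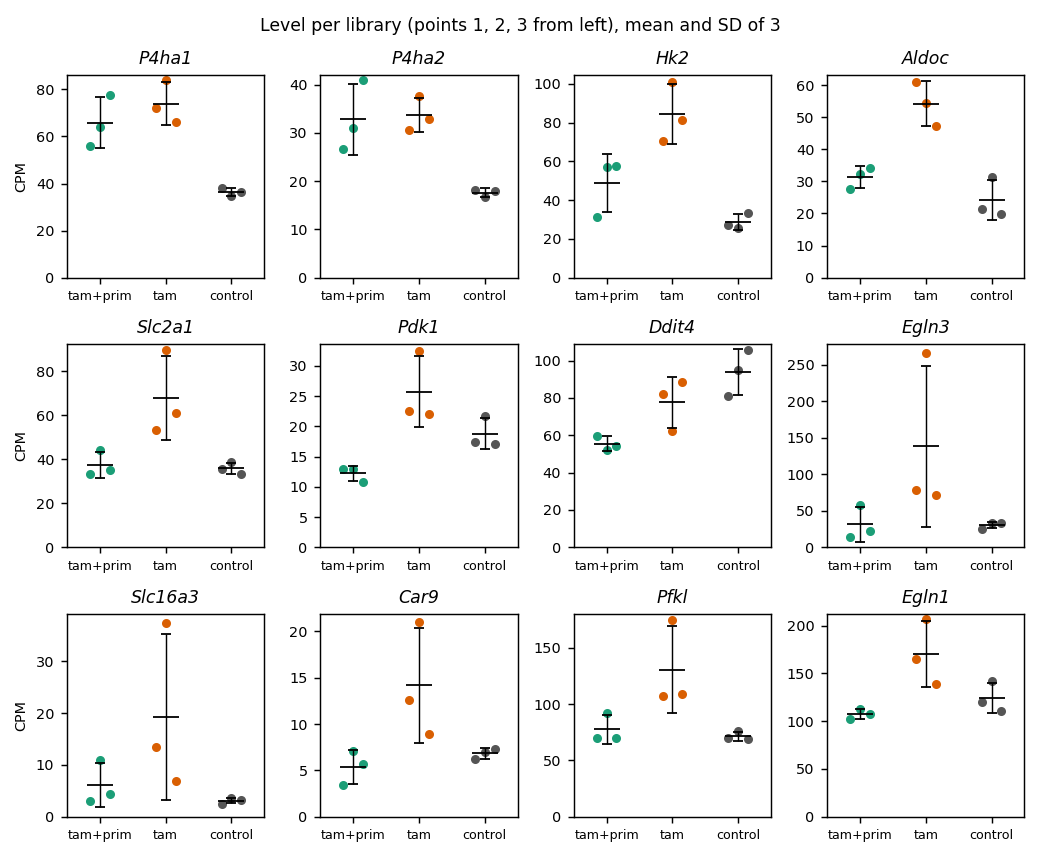
Points are CPM (linear axis from 0) of 12 genes in libraries 1, 2 and 3 of tamoxifen+primidone (tam+prim), tamoxifen (tam) and control uteri, with the mean and SD of 3. P4ha1 and P4ha2 are above the controls in both tamoxifen-treated groups, Hk2, Aldoc, Slc2a1 and Pfkl are above the other groups in tamoxifen uteri, and Ddit4 is lowest in tamoxifen+primidone uteri.

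Ddit4, an inhibitor of mTOR signalling that is induced by hypoxia, stress and glucocorticoids, had another order of groups. It had 59.8, 52.1 and 54.3 CPM in tamoxifen+primidone uteri, 81.9, 62.5 and 88.6 CPM in tamoxifen uteri and 80.9, 95.1 and 105 CPM in control uteri. All tamoxifen+primidone libraries lay below all others. Ddit4 fell in tamoxifen+primidone uteri relative to control, with a log2 fold change of -0.76 ± 0.14 (edgeR adjusted p = 0.017). The adjusted p was 0.0568 without tamoxifen+primidone 2 and 0.0664 without control 3. It was -0.49 ± 0.14 (edgeR adjusted p = 0.181) for tamoxifen+primidone against tamoxifen and -0.27 ± 0.14 (edgeR adjusted p = 0.332) for tamoxifen against control. The 8 glucocorticoid response genes summed to 319 to 439 CPM in tamoxifen+primidone uteri, 368 to 633 CPM in tamoxifen uteri and 391 to 414 CPM in control uteri, and edgeR called 0 of the 8 in each comparison, with 2 at an unadjusted p under 0.05 for tamoxifen against control, 2 for tamoxifen+primidone against tamoxifen and 3 when it was set against control. DESeq2 called 1 in each and limma-voom 0. Their part in the Ddit4 result was not tested.

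The secreted and surface targets had higher means in tamoxifen than in control uteri. None passed edgeR's test, and DESeq2 called Vegfa, Adm and Car9 higher. Vegfa, the main growth factor for vessels, had 70.5, 75.5 and 56.2 CPM in tamoxifen+primidone uteri, 63.3, 147 and 68.2 CPM in tamoxifen uteri and 53.1, 55.5 and 43.0 CPM in control uteri. The tamoxifen and control libraries did not overlap, tamoxifen 2 was far above the other 8, and tamoxifen+primidone 1 and 2 lay above tamoxifen 1 and 3. The log2 fold change was 0.88 ± 0.30 (edgeR adjusted p = 0.182) for tamoxifen against control and 0.38 without tamoxifen 2. For tamoxifen+primidone against tamoxifen it was -0.46 ± 0.30, and 0.034 without tamoxifen 2. Adm, the vasodilator peptide adrenomedullin, had 20.3, 15.8 and 20.5 CPM in tamoxifen+primidone uteri, 19.8, 35.1 and 17.8 CPM in tamoxifen uteri and 13.7, 13.9 and 12.5 CPM in control uteri. Both groups that had received tamoxifen lay above all controls, for Adm as for Vegfa, and tamoxifen+primidone 1 and 3 lay above tamoxifen 1 and 3. Adm was 0.86 ± 0.23 (edgeR adjusted p = 0.101) for tamoxifen against control and 0.50 without tamoxifen 2. For tamoxifen+primidone against tamoxifen Adm was -0.36 ± 0.23, and 0.0016 without tamoxifen 2. Car9, a membrane carbonic anhydrase that lies outside the cell, had 3.39, 7.07 and 5.66 CPM in tamoxifen+primidone uteri, 12.6, 21.0 and 8.92 CPM in tamoxifen uteri and 6.19, 7.01 and 7.28 CPM in control uteri. Every tamoxifen library lay above the other 6, at 1.05 ± 0.33 (edgeR adjusted p = 0.139) for tamoxifen against control and -1.40 ± 0.33 (edgeR adjusted p = 0.139) for tamoxifen+primidone against tamoxifen.

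Among the intracellular targets, Higd1a, a protein of the mitochondrial inner membrane, was 0.72 ± 0.19 (edgeR adjusted p = 0.0892) for tamoxifen against control, and DESeq2 called it higher. Bnip3, a receptor for the removal of mitochondria, was 0.53 ± 0.24 in that comparison and -0.69 ± 0.24 (edgeR adjusted p = 0.258) for tamoxifen+primidone against tamoxifen. Without tamoxifen 2 these were 0.21 and -0.36. Its relative Bnip3l was 0.04 ± 0.11 and -0.24 ± 0.11. Ndrg1, a stress-induced cytoplasmic protein, had 89.1, 94.2 and 56.9 CPM in tamoxifen+primidone uteri, 118, 266 and 93.3 CPM in tamoxifen uteri and 105, 93.3 and 95.4 CPM in control uteri. Tamoxifen 2 was more than 2 times any other library, and tamoxifen 3 lay just below all 3 controls. Ndrg1 was 0.70 ± 0.37 for tamoxifen against control, 0.12 without tamoxifen 2, and -0.99 ± 0.37 (edgeR adjusted p = 0.301) for tamoxifen+primidone against tamoxifen, or -0.40 without tamoxifen 2. Ankrd37, an ankyrin-repeat protein, had 3.08, 10.2 and 3.04 CPM in tamoxifen+primidone uteri, 12.7, 23.5 and 10.4 CPM in tamoxifen uteri and 6.59, 11.5 and 8.34 CPM in control uteri. Tamoxifen+primidone 1 and 3 were the lowest of the 9, and tamoxifen+primidone 2 was among the controls. The log2 fold change was -1.52 ± 0.51 (edgeR adjusted p = 0.249) against tamoxifen. The MYC antagonist Mxi1 and the histone demethylase Kdm3a had values of -0.18 ± 0.22 and 0.01 ± 0.21 for tamoxifen against control, and -0.24 ± 0.22 and -0.24 ± 0.21 for tamoxifen+primidone against tamoxifen, with overlap in both. Of the 13 targets, 2 rose in tamoxifen uteri, beside 0.573% of all genes tested. A positive fold change was seen for 11, and the median was 0.72, or 0.38 without tamoxifen 2.

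Other genes of the pathway were taken from lists. Of 57 other hypoxia-inducible genes tested, 4 rose and 2 fell in tamoxifen uteri, with a median log2 fold change of 0.13. Tfrc, the transferrin receptor, averaged 71.1 ± 6.49 CPM in tamoxifen uteri and 31.0 ± 5.92 CPM in control uteri (SD, n = 3 each) and rose by 1.20 ± 0.19 (edgeR adjusted p = 0.0236) on the log2 scale. Nfil3, a repressor that is also part of the clock, rose by 1.58 ± 0.26 (edgeR adjusted p = 0.024), the chemokine receptor Cxcr4 by 0.85 ± 0.17 (edgeR adjusted p = 0.042) and the coactivator Pnrc1 by 0.44 ± 0.09 (edgeR adjusted p = 0.0443). Bhlhe41, a repressor in the clock, was -1.40 ± 0.22 (edgeR adjusted p = 0.0233) and the metallothionein Mt2 -1.83 ± 0.36 (edgeR adjusted p = 0.0432), both lower. Without tamoxifen 2 these counts were 1 higher and 1 lower. For tamoxifen+primidone against tamoxifen 0 of the 57 passed with edgeR, 17 had an unadjusted p under 0.05, DESeq2 called 11 lower and limma-voom 0, and the median was -0.18.

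Against control, tamoxifen+primidone uteri had 3 of the 57 higher, Tfrc at 0.76 ± 0.19 (edgeR adjusted p = 0.0468), Nfil3 at 1.05 ± 0.26 (edgeR adjusted p = 0.0479) and Cxcr4 at 0.69 ± 0.17 (edgeR adjusted p = 0.0458). The 3 lower were Bhlhe40 at -0.67 ± 0.10 (edgeR adjusted p = 0.00789), Bhlhe41 at -2.04 ± 0.22 (edgeR adjusted p = 0.00334) and the lipoprotein receptor Vldlr at -0.59 ± 0.14 (edgeR adjusted p = 0.0426). When tamoxifen 2 was dropped from the shared fit, 1 was higher and 4 were lower. Of 12 other glycolysis genes tested, 2 rose in tamoxifen+primidone uteri against control, among them Hk3, the hexokinase of blood cells, by 0.79 ± 0.19 (edgeR adjusted p = 0.0444). Of 22 genes of pyruvate, lactate and glucose handling only Pck1, of gluconeogenesis and fat cells, rose in that comparison, at 1.67 ± 0.40 (edgeR adjusted p = 0.0483). Of 17 other HIF pathway genes only the coregulator Cited4 fell there, at -0.87 ± 0.20 (edgeR adjusted p = 0.0418). With tamoxifen 2 dropped from the fit, the calls in these lists were 1 of the 12, 0 of the 22 and 1 of the 17. In the same 3 lists edgeR called 0 for tamoxifen against control and for tamoxifen+primidone against tamoxifen, with 2, 4 and 2 genes at an unadjusted p under 0.05 in the first comparison and 2, 6 and 4 in the second. DESeq2 called 1, 1 and 0 in the first and 0, 1 and 3 in the second, and limma-voom 0 in each.

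Neither glycogen metabolism (15 genes) nor the pentose phosphate pathway (8 genes) had a gene called by edgeR in any comparison. The counts at an unadjusted p under 0.05 were 5, 3 and 5 for glycogen and 1, 2 and 2 for pentose phosphate genes, in tamoxifen against control, in tamoxifen+primidone against tamoxifen and, last, in tamoxifen+primidone against control. DESeq2 called 3, 1 and 2 glycogen genes and 0, 1 and 1 pentose phosphate genes, and limma-voom 0. The glycogen gene with the smallest p was the phosphorylase Pygb for tamoxifen against control, at -0.33 ± 0.08 (edgeR adjusted p = 0.0756), and for tamoxifen+primidone against control, at -0.29 ± 0.08 (edgeR adjusted p = 0.0641). Among pentose phosphate genes it was the dehydrogenase Pgd for tamoxifen against control, at 0.22 ± 0.08 (edgeR adjusted p = 0.177), and G6pdx, of the first step, for tamoxifen+primidone against control, at -0.38 ± 0.12 (edgeR adjusted p = 0.0813).

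All listed markers of uterine epithelium, stroma and smooth muscle were detected. Epithelial markers (9 genes) summed to 3412 to 3941 CPM in tamoxifen+primidone uteri, 4555 to 4966 CPM in tamoxifen uteri and 4518 to 4819.7 CPM in control uteri, with 0 of 9 called for tamoxifen+primidone against tamoxifen by edgeR, 7 at an unadjusted p under 0.05 and 5 called lower by DESeq2. In tamoxifen+primidone uteri, against control, 2 of the 9 fell, Elf3 at -0.59 ± 0.09 (edgeR adjusted p = 0.00923) and Cldn4 at -0.31 ± 0.08 (edgeR adjusted p = 0.0465). There 8 had an unadjusted p under 0.05, 7 of them lower and 1, Foxa2, higher. With tamoxifen 2 dropped from the fit 1 was called. DESeq2, with all 9 libraries, called 4 lower and 1 higher. Stromal markers (8 genes) summed to 5666 to 6807 CPM in tamoxifen+primidone uteri, 6444 to 6804 CPM in tamoxifen uteri and 5925 to 7545 CPM in control uteri. For tamoxifen+primidone against tamoxifen, edgeR called 0 of the 8 stromal markers. An unadjusted p under 0.05 was seen for 3 of them, all higher, and DESeq2 called 3 higher and 0 lower. Endothelial markers (8 genes) summed to 509 to 659 CPM in tamoxifen+primidone uteri, 491 to 594 CPM in tamoxifen uteri and 564 to 680.1 CPM in control uteri. Macrophage markers (8 genes) summed to 772 to 1464 CPM in tamoxifen+primidone uteri, 1154 to 1598 CPM in tamoxifen uteri and 929.8 to 1081 CPM in control uteri. In tamoxifen uteri, against control, edgeR called 0 of those 8, with 2 at an unadjusted p under 0.05 and 1 called higher by DESeq2. Estrogen-responsive uterine genes (10) summed to 26144 to 42438 CPM in tamoxifen+primidone uteri, 51700.2 to 61108 CPM in tamoxifen uteri and 57996 to 60959 CPM in control uteri, the lowest being tamoxifen+primidone 1. The sum adds genes that moved in opposite directions. Clca1 stood at 14399 to 16088 CPM in tamoxifen and 23359 to 30331 CPM in control uteri. Lcn2 stood at 3986 to 6792 CPM in tamoxifen and 2682 to 3794 CPM in control uteri. Sprr2f rose in tamoxifen uteri, at 1.14 ± 0.18 (edgeR adjusted p = 0.0226). For tamoxifen against control 6 of the 10 had an unadjusted p under 0.05, 4 higher and 2 lower. DESeq2 called 2 higher and 2 lower. In tamoxifen+primidone uteri, against control, 3 of the 10 fell, Ltf at -1.04 ± 0.18 (edgeR adjusted p = 0.0136), Muc1 at -0.68 ± 0.14 (edgeR adjusted p = 0.0255) and Greb1 at -1.07 ± 0.25 (edgeR adjusted p = 0.0459), and 2 were called with tamoxifen 2 dropped from the fit. With tamoxifen+primidone against tamoxifen, 9 of the 10 had a negative fold change, 6 had an unadjusted p under 0.05, edgeR called 0, DESeq2 called 5 lower and limma-voom 0.

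Of 12 clock genes, 1 rose and 5 fell in tamoxifen uteri, Arntl at 2.05 ± 0.13 (edgeR adjusted p = 0.000248) and Dbp at -2.89 ± 0.33 (edgeR adjusted p = 0.00962), with Per3, Cry2, Nr1d2 and Ciart the others that fell. Without tamoxifen 2, 1 rose and 3 fell. In tamoxifen+primidone uteri, against control, 2 rose (Arntl and Clock) and 6 fell (Per2, Per3, Cry2, Nr1d2, Dbp and Ciart). The labels used here state neither the hour of collection nor the estrous stage. Of 15 cell cycle genes, 2 fell in tamoxifen uteri, Ccnb2 at -2.24 ± 0.43 (edgeR adjusted p = 0.0432) and Cdc20 at -2.11 ± 0.37 (edgeR adjusted p = 0.0324), and 0 passed without tamoxifen 2. With all 9 libraries, all 15 had a negative fold change for tamoxifen against control, 10 had an unadjusted p under 0.05 and DESeq2 called 10 lower. Set against tamoxifen, tamoxifen+primidone gave all 15 a positive fold change, edgeR called 0, 13 had an unadjusted p under 0.05, DESeq2 called 9 higher and limma-voom 0. The 15 genes summed to 242, 553 and 531 CPM in tamoxifen+primidone 1, 2 and 3, 216 to 242 CPM in tamoxifen uteri and 379.8 to 477 CPM in control uteri. Tamoxifen+primidone 1 was thus level with the tamoxifen libraries. All tamoxifen+primidone libraries lay above all tamoxifen libraries for 4 of the 15 (background 8.08%). Fat cell markers (7 genes) summed to 145 to 468 CPM in tamoxifen+primidone uteri, 113 to 372 CPM in tamoxifen uteri and 91.2 to 101 CPM in control uteri, red cell markers (7 genes) to 186 to 538 CPM in tamoxifen+primidone uteri, 231 to 334 CPM in tamoxifen uteri and 67.5 to 223 CPM in control uteri, and T and NK cell markers (10 genes) to 27.4 to 33.4 CPM in tamoxifen+primidone uteri, 25.9 to 38.2 CPM in tamoxifen uteri and 18.4 to 21.4 CPM in control uteri. Neutrophil markers (7 genes) stood at 39.5 to 70.0 CPM in tamoxifen+primidone uteri, 54.5 to 56.1 CPM in tamoxifen uteri and 19.2 to 45.0 CPM in control uteri, skeletal muscle markers (9 genes) at 45.3 to 56.5 CPM in tamoxifen+primidone uteri, 33.5 to 65.6 CPM in tamoxifen uteri and 64.7 to 80.8 CPM in control uteri and nerve markers (8 genes) at 10.2 to 13.9 CPM in tamoxifen+primidone uteri, 6.29 to 8.89 CPM in tamoxifen uteri and 9.50 to 16.7 CPM in control uteri. Single markers of these and other cell types also passed. Stmn2 (nerve) fell in tamoxifen uteri. In tamoxifen+primidone uteri, against control, Myh11 and Actg2 (smooth muscle) and Cd68 (macrophages) fell, and Hand2 (stroma), Hbb-bs (red cells), Gap43 (nerve) and Nkg7 (NK cells) rose. Single markers did not always go with their list. Fold changes there were positive for 6 of 8 macrophage markers and negative for 2 of 3 nerve markers tested. Smooth muscle markers were negative in 8 of 8. Positive values were seen for 6 of 6 red cell markers tested, 5 of 8 stromal markers and 7 of 10 T and NK cell markers. The part of cell content, hormone state and collection hour in the results above was not tested.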

How the data were processed

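Gene counts were deposited by the authors as whole reads per gene symbol for 9 libraries, and FPKM values (scaled by gene length and depth) were deposited by the authors for the same libraries. HISAT2, HTSeq, R 3.2.0, DESeq2 and GRCm39 are named per the submitters' processing notes. The labels do not state the strand setting. Library totals were 36393120 to 39958443 counts. Counts were tested with edgeR 4.0.16 (R 4.3.3; TMM, robust quasi-likelihood fit of all 9 libraries by group, two-sided) over the 15186 of 18094 genes that passed filterByExpr, with Benjamini-Hochberg adjustment and a threshold of 0.05. Errors of fold changes are standard errors. The script was tested on simulated data. CPM values were scaled by TMM, and FPKM was used for levels between genes and shares within a family. The members and lists were chosen with earlier results of these data known. A member's fold change, standard error and adjusted p are given where its unadjusted p was under 0.05, or where it is described in full, and genes of other lists are named where they passed, or else by smallest p. Alternatives were other scalings and filters, DESeq2 1.42.0, limma 3.58.1 (on log2(FPKM + 1) and log2(FPKM + 0.1)), 2 groups only, a replicate block and each library left out. No label says whether libraries of a group came from separate animals, so p-values measure the spread between these libraries, which may be technical. The submitters' word for the injected control is read here as vehicle. RefSeq start windows are of GRCm38.p6. The values of 1 gene of the other glycolysis list are not reported here.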

Additional observations from a re-analysis of the deposited data

How the results depend on the processing

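The number of listed genes called higher in tamoxifen than in control uteri was 5 in the fit as reported, 16 with DESeq2 and 8 with only the 2 groups compared. It was 4 with limma-voom and with limma on log2(FPKM + 1), and 1 to 8 with each library left out in turn. Genes called lower in tamoxifen+primidone than in tamoxifen uteri numbered 0 as reported, 1 with no low-count filter and 12 with DESeq2. Against control, tamoxifen+primidone uteri had 2 genes higher as reported and 1 to 4 with a library left out, and 1 gene lower as reported, 3 with DESeq2 and 0 to 2 with a library left out. The deviations of same-numbered libraries from their group means had correlations of -0.134 to 0.177. Of 6 libraries, 4 correlated best with their own number for tamoxifen+primidone against tamoxifen, and 2 in each of the other comparisons. With 3 libraries a group these values cannot decide whether equal numbers mark pairs. No label says that they do, so the fit as reported does not take them as pairs. With the replicate block, 8 genes were called higher in tamoxifen than in control uteri, 5 lower in tamoxifen+primidone than in tamoxifen uteri, and 3 lower in tamoxifen+primidone than in control uteri. Shares over all genes are given above for DESeq2 in tamoxifen against control and in tamoxifen+primidone against tamoxifen. They are not given for the other alternative counts, including those with a library left out. Those counts do not tell a gain in the listed genes from a fit that calls more genes. Of the 58 single-gene values recomputed under each alternative, 4 changed sign, in 12 cases in all, and none of the 4 had passed the test. For tamoxifen+primidone against tamoxifen, P4ha2 was 0.014 on each FPKM scale and -0.23 to 0.088 with a library left out. For tamoxifen+primidone against control, Eno1 was 0.00092 with upper-quartile factors, 0.041 and 0.042 with limma on FPKM, and -0.12 to 0.056 with a library left out. Pfkl ranged from -0.025 to 0.19 and Slc2a1 from -0.070 to 0.15 with a library left out. Other values near 0 were recomputed only without tamoxifen 2, where for tamoxifen against control Gpi1 became -0.05, Vhl -0.08, Bnip3l -0.06 and Kdm3a -0.22, each of the opposite sign. Over all single-gene values and alternatives, a call was lost 29 times and gained 50 times, and the cause was not tested. The median of all genes moved by under 0.1 on the log2 scale under each scaling. With 3 libraries a group, exact tests could not go below p = 0.1.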
